A study of Rattus norvegicus with 20 samples.

Results

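Phospholipase A2 enzymes cut a fatty acid from the middle position of membrane phospholipids, and the n-6 or n-3 fatty acid released is the substrate from which prostaglandins, leukotrienes and other eicosanoids are made. Cyclooxygenases start the prostanoid branch, terminal synthases then set which prostanoid is formed, and lipoxygenases start the leukotriene and hydroxy fatty acid branches. EPA and DHA from fish oil enter the same phospholipids and compete with arachidonic acid for these enzymes. Skeletal muscle fibres, macrophages, mast cells and vessel cells all carry some of them, so bulk muscle RNA mixes their contributions.

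The genes described here were 10 enzymes of this route, listed by symbol: the phospholipases Pla2g2a, Pla2g4a and Pla2g6, the cyclooxygenases Ptgs1 and Ptgs2, the terminal synthases Ptges, Ptgds and Ptgis, and Alox5ap and Alox15 of the lipoxygenase branch. Of the 10 genes, 9 had a row among the 32495 named rows of the count table; Ptgis was not analysed here. Of those 9, 6 passed the filter on low counts that left 11716 genes for testing, and Ptgs2, Ptgds and Alox15 did not. The table held 20 libraries of gastrocnemius muscle from female Fischer 344 rats that all carried the Ward tumour, a colorectal carcinoma left to grow 2 weeks ahead of any treatment. TUMOUR STD (5 libraries) had the tumour and a standard diet with no chemotherapy. CHEMO STD (7 libraries) received 2 cycles of CPT-11 (irinotecan) followed by 5-FU (5-fluorouracil, 50 mg/kg) on the standard diet. CHEMO FO (8 libraries) received the same cycles and was moved to a diet containing fish oil when chemotherapy began. Muscle was taken 7 days after the last cycle. No tumour-free rats and no fish oil group without chemotherapy were analysed here. The ages are given in the study's methods as 11–12 with no unit.

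Total counts per library ran from 5428544 to 10887041 in TUMOUR STD, from 3023899 to 10537322 in CHEMO STD and from 3041142 to 9130631 in CHEMO FO. CHEMO STD replicates 1 and 2 differed far less than other pairs of libraries within a group, though by more than sampling noise alone, which gives a chi-square per gene of about 1 (2.23, against 13.7 to 255 in 58 other pairs), and were summed as 1 sample, which left 19 samples and CHEMO STD n = 6. Muscle fibre genes were abundant in every sample (5 of 5 listed genes, summed level 115900 to 230500 CPM, the counts scaled to a common library size). Some libraries stood apart. CHEMO FO replicate 18 had the lowest muscle fibre sum of all samples (115900 CPM) and the highest macrophage sum (734 CPM for 8 of 8 listed genes, against 190 to 302 in the rest of its group). TUMOUR STD replicate 10 carried keratinocyte genes at 340.5 CPM (7 of 7 with a row), against 1.04 to 2.83 in the rest of its group, and CHEMO FO replicate 16 at 75.6 CPM. TUMOUR STD replicate 10 also had the highest Schwann cell sum of all samples (575.2 CPM, against 141.6 to 188.1 in the rest of its group). Its macrophage and endothelium sums were the highest of its group (339.2 and 280.3 CPM, against medians of 212.2 and 236.5 CPM). CHEMO STD replicate 7 carried B and T cell genes at 48.9 CPM. CHEMO STD replicates 1 and 2 had the highest Schwann cell and fibroblast sums of their group (542.8 and 11220 CPM, against group medians of 164 and 3586 CPM).

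Because Pla2g2a was the only member called in the filtered fit, the 250 bases before its start in the rat, as RefSeq places it (build GRCr8, plus strand, chr5:156359475-156359724), are printed here. Capitals mark the single match of 6 motifs searched on both strands, the C/EBP letters TTNNGNAA.

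Pla2g2a: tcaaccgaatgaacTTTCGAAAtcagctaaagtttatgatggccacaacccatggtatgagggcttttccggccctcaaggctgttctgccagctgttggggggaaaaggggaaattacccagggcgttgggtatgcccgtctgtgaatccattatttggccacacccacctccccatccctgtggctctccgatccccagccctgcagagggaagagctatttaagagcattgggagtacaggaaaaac

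That match began 236 bases before the start. The same letters were found in the corresponding 250 bases of 37.2% of 33469 promoters in the RefSeq table and in 6 of the 8 entries for 7 members (Pla2g6 has 2 entries). The TATA box letters TATAAA were found in 1 member entry, that of Pla2g4a, and in 12.9% of all promoters, and no member entry held TGANTCA of AP-1 (6.34% of all), TGACGTCA of the cyclic AMP response element (1.59%), the NF-kB consensus (6.33%) or the PPAR response element DR1 (0.117%). The RNA counts do not measure binding at this sequence.

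Levels are CPM on effective library sizes scaled by TMM, and differences are log2 fold changes from edgeR with their standard error (SE). Genes were called where the unadjusted p lay below 0.05 and the change reached 1.5-fold, which are the thresholds of the study's methods. Counts per gene were compared between groups only, since no transcript lengths were used to compare levels between genes. In bulk muscle, fewer cells of a type and less RNA per cell cannot be told apart.

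**Figure D1:**
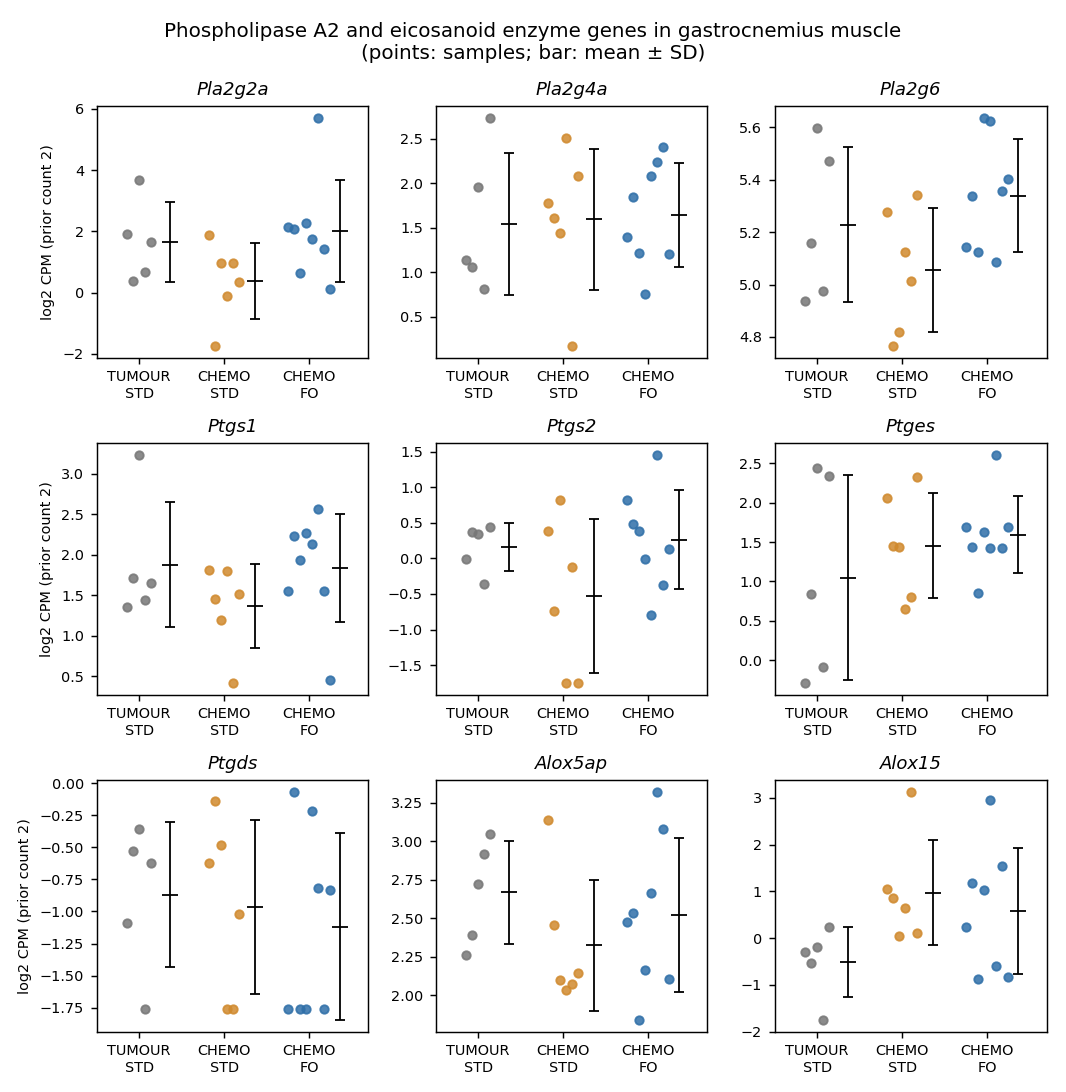
Level of the 9 measured enzymes in each sample. The y axis is log2 CPM with a prior count of 2, each point is 1 sample of TUMOUR STD (n = 5), CHEMO STD (n = 6) or CHEMO FO (n = 8), and the bar beside each group is the mean ± SD; the axes differ between genes. Samples of the 3 groups overlap for all 9 genes, and 1 CHEMO FO sample stands far above the rest for Pla2g2a.

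None of the 6 tested enzymes was called in CHEMO STD versus TUMOUR STD (0 of 6), where 2.38% of the 11716 genes tested were called. Of the 6, 1 was called in CHEMO FO versus CHEMO STD, Pla2g2a, with a background of 1.66%. None was called in CHEMO FO versus TUMOUR STD (0 of 6), with a background of 3.6%. By sign alone, chemotherapy on the standard diet went with 2 of the 6 higher and 4 lower than TUMOUR STD (median log2 fold change -0.23, against 0.00 over all genes), all 6 were higher in CHEMO FO than in CHEMO STD (median 0.24, against -0.01), and 4 were higher and 2 lower in CHEMO FO than in TUMOUR STD (median 0.08, against 0.00). The count of 6 did not hold in several fits with 1 sample left out. Without CHEMO FO replicate 18, Pla2g4a was at -0.04 and Ptges at -0.18 against CHEMO STD. Pla2g4a was also below 0 without CHEMO STD replicate 4 or 6 or CHEMO FO replicate 19, and Ptges without CHEMO STD replicate 5 or 6. These comparisons share samples, so their values are given side by side and not set against each other. No gene of the whole table passed a Benjamini-Hochberg adjusted p of 0.05 in edgeR (0 genes in each comparison; 762, 527 and 1059 genes at an unadjusted p below 0.05), and DESeq2 gave 0, 0 and 11 genes.

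**Figure D2:**
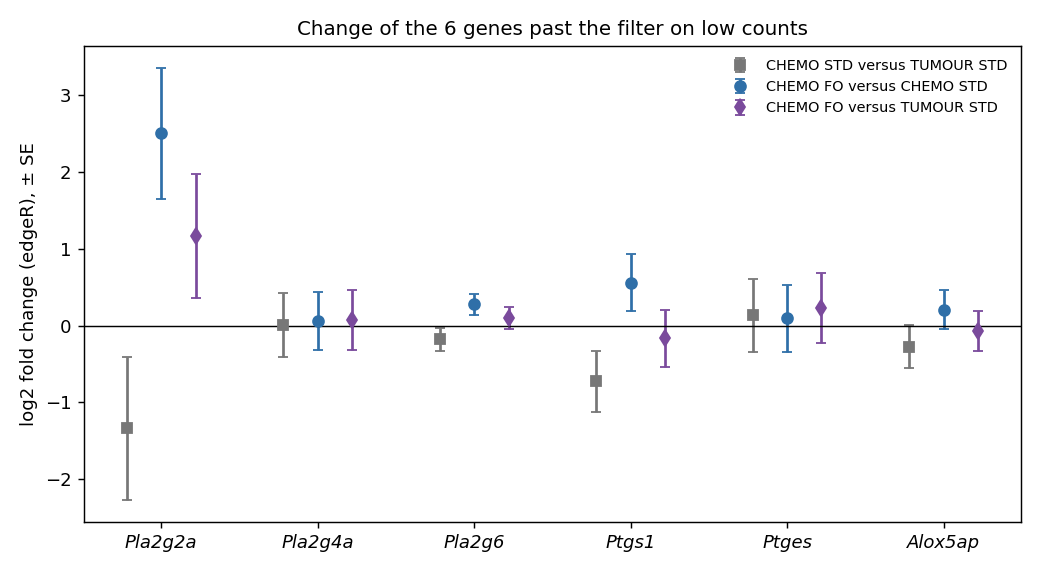
Differences of the 6 enzymes that passed the filter on low counts. The y axis is the edgeR log2 fold change with its SE as the bar, and the 3 symbols at each gene are the 3 comparisons. Pla2g2a has the largest differences and the widest bars (2.51 in CHEMO FO versus CHEMO STD), while those of Pla2g4a and Ptges lie within 1 SE of 0.

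Pla2g2a encodes the secreted group IIA phospholipase A2, an enzyme of inflammatory fluids that also attacks bacterial membranes. In TUMOUR STD it stood at 3.47, 0.993, 12.4, 1.29 and 2.83 CPM in replicates 8 to 12. In CHEMO STD the lowest sample had 0 counts (replicate 3, where a count of 0 allows up to 0.924 CPM), the median was 1.32 CPM and the highest 3.38 CPM. In CHEMO FO the lowest was 0.801 CPM, the median 3.52 CPM and the highest 52.2 CPM. The 3 groups overlapped, 2 libraries were far above the rest of their groups, and these were CHEMO FO replicate 18 (576 counts) and TUMOUR STD replicate 10 (128 counts). Group means were 4.20 ± 4.71 CPM (SD, n = 5), 1.39 ± 1.16 CPM (SD, n = 6) and 9.04 ± 17.5 CPM (SD, n = 8), and the last was 2.87 ± 1.45 CPM (SD, n = 7) without CHEMO FO replicate 18.

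Pla2g2a was higher in CHEMO FO than in CHEMO STD by a log2 fold change of 2.51 (SE 0.854, unadjusted p = 0.00750, adjusted p = 0.974 by edgeR). Without CHEMO FO replicate 18 the change was 0.72 (SE 0.593, unadjusted p = 0.235 by edgeR) and no longer called. DESeq2 gave 0.88 and limma voom with sample weights 1.17, neither called. DESeq2 was run at its defaults, which can replace outlying counts, and limma voom weighted the samples. Neither is therefore separate from the fit without CHEMO FO replicate 18. On mean log2 CPM the difference was 1.64 (exact permutation, two-sided, p = 0.0519 over 3003 arrangements); this p ran from 0.0175 to 0.152 with 1 sample left out at a time. In CHEMO FO replicate 18 the macrophage scavenger receptors Cd163 and Mrc1 stood at 272 and 167 CPM, against at most 62.8 and 56.3 CPM in the rest of the group, while Csf1r, the receptor on which macrophages depend, was at 54.2 CPM, within the range of the rest of the group (44.0 to 71.1 CPM), and the lysosomal macrophage gene Cd68 was at 4.90 CPM, against 1.46 to 4.88 CPM. The part of these cells in the Pla2g2a level was not tested.

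**Figure D3:**
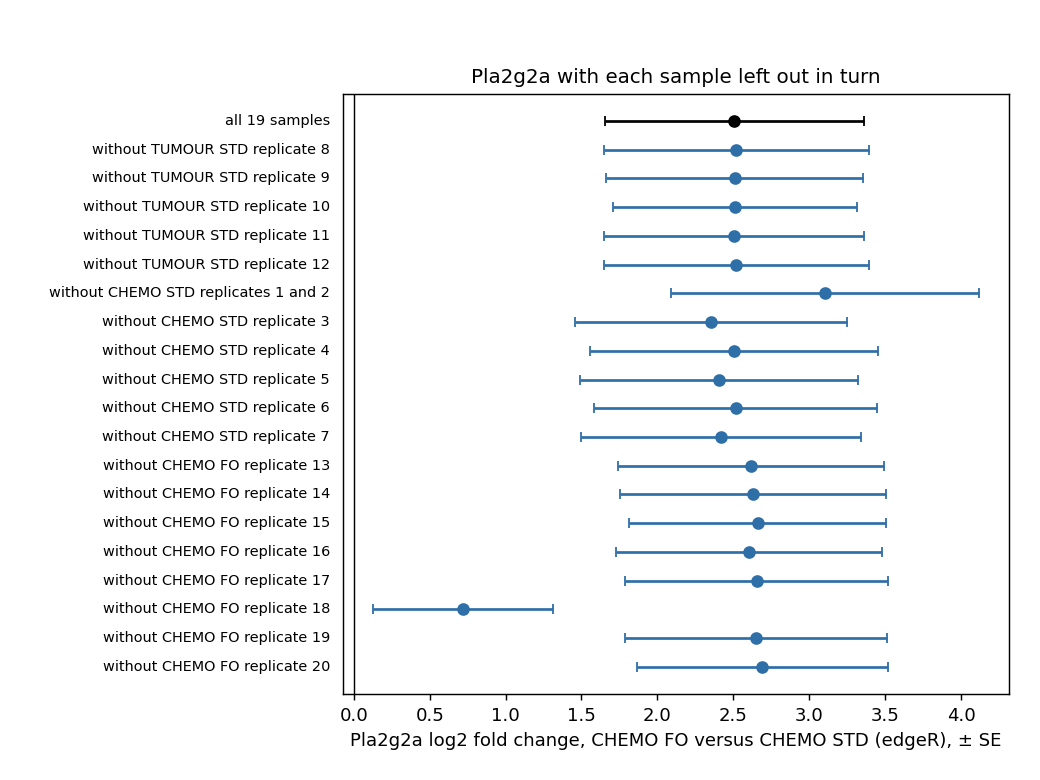
Pla2g2a in CHEMO FO versus CHEMO STD with each sample left out in turn. The x axis is the edgeR log2 fold change with its SE as the bar, and each row is 1 fit, the top row with all 19 samples. The change is largest without CHEMO STD replicates 1 and 2 (3.10) and falls to 0.72 without CHEMO FO replicate 18.

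In CHEMO STD versus TUMOUR STD, Pla2g2a had a log2 fold change of -1.34 (SE 0.932, unadjusted p = 0.164 by edgeR), and -0.28 without TUMOUR STD replicate 10, the library with the highest keratinocyte and Schwann cell sums. The call depended on the settings: the change was -1.47 and called by DESeq2, and -1.35 and called in edgeR when CHEMO FO replicate 18, which is in neither group, was left out. Between CHEMO FO and TUMOUR STD the change was 1.17 (SE 0.806, unadjusted p = 0.162 by edgeR). It turned to -0.63 without CHEMO FO replicate 18 and was 2.23 and called without TUMOUR STD replicate 10. With both libraries left out the changes were -0.31 for CHEMO STD and 0.41 for CHEMO FO against TUMOUR STD and 0.73 between the latter arms, and none was called. Neighbours in the order of the means, CHEMO FO over TUMOUR STD over CHEMO STD, did not differ beyond the spread between samples in that fit.

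Pla2g6, the calcium-independent phospholipase of the cytosol and mitochondria, was counted deepest among the members, with 88 to 764 counts per sample. It stood at 30.3, 35.4, 48.2, 31.2 and 44.1 CPM in TUMOUR STD. CHEMO STD ran from 26.9 to 40.2 CPM (median 33.3), and CHEMO FO from 33.6 to 49.5 CPM (median 40.5). The samples of CHEMO FO lay mostly in the upper part of the CHEMO STD range or above it, and the groups overlapped. The log2 fold change in CHEMO FO versus CHEMO STD was 0.28 (SE 0.138, unadjusted p = 0.0548, adjusted p = 0.974 by edgeR), below the 1.5-fold threshold. The exact permutation test gave a difference of 0.28 (two-sided p = 0.0390, adjusted p = 1), where 4.02% of the 19364 genes with a count passed p below 0.05, and the p rose above 0.05 when any of 9 of 14 samples was left out. Against TUMOUR STD the changes were -0.18 (SE 0.152) in CHEMO STD and 0.10 (SE 0.143) in CHEMO FO, neither called.

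Pla2g4a, the calcium-dependent cytosolic phospholipase that prefers arachidonic acid, had means within 1 SD of each other. They were 3.02 ± 2.05 CPM (SD, n = 5) for TUMOUR STD, 3.07 ± 1.53 CPM (SD, n = 6) for CHEMO STD, and for CHEMO FO 3.06 ± 1.32 CPM (SD, n = 8). The 3 log2 fold changes lay between 0.01 and 0.07 with SEs of 0.378 to 0.420, and a change well above 1 SE would have been needed for a call. These SEs hold the spread between samples as well as counting error (4 to 62 counts per sample).

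The cyclooxygenases make prostaglandin H2 from the released fatty acid. Ptgs1, the constitutive isoform, stood at 2.25, 2.98, 9.11, 2.42 and 2.83 CPM in TUMOUR STD, where replicate 10 was above the rest. CHEMO STD ran from 1.03 to 3.22 CPM (median 2.50) and CHEMO FO from 1.07 to 5.62 CPM (median 3.80). The log2 fold change was -0.73 in CHEMO STD versus TUMOUR STD (SE 0.401, unadjusted p = 0.0834 by edgeR), and -0.12 without TUMOUR STD replicate 10. It was 0.56 in CHEMO FO versus CHEMO STD (SE 0.376) and -0.17 in CHEMO FO versus TUMOUR STD (SE 0.369), turning to 0.44 without TUMOUR STD replicate 10, and none of these was called.

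Ptgs2, the inducible cyclooxygenase, lay below the filter with 0 to 27 counts per sample. Its mean was 0.840 ± 0.244 CPM (SD, n = 5) in TUMOUR STD, 0.567 ± 0.587 CPM (SD, n = 6) in CHEMO STD, where 2 samples had 0 counts, and 1.03 ± 0.679 CPM (SD, n = 8) in CHEMO FO, where replicate 18 was highest at 2.45 CPM. Exact permutation tests of mean log2 CPM gave differences of -0.68 in CHEMO STD versus TUMOUR STD (two-sided p = 0.225), 0.79 in CHEMO FO versus CHEMO STD (p = 0.124) and 0.11 in CHEMO FO versus TUMOUR STD (p = 0.753). The groups overlapped in all 3, and a count of 0 allowed up to 0.993 CPM in CHEMO STD replicate 5.

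Among the terminal synthases, Ptges encodes the microsomal prostaglandin E synthase that works with the inducible cyclooxygenase. It stood at 0.520, 1.49, 5.14, 0.646 and 4.78 CPM in TUMOUR STD, a wide spread that covered the ranges of CHEMO STD (1.27 to 4.71 CPM) and nearly all of CHEMO FO (1.51 to 5.803 CPM). Its log2 fold changes were 0.13 (SE 0.479) in CHEMO STD and 0.23 (SE 0.454) in CHEMO FO against TUMOUR STD, and 0.09 (SE 0.435) between the arms with chemotherapy, none called. Only limma voom with sample weights, among the alternatives run, called it, in CHEMO FO versus TUMOUR STD (0.93). Ptgds, the lipocalin-type prostaglandin D synthase, had at most 7 counts in any sample and 0 counts in 7 of the 19. Its mean CPM was 0.282, 0.263 and 0.220 in TUMOUR STD, CHEMO STD and CHEMO FO, and exact permutation p values ran from 0.518 to 0.812, so that no difference was detectable at this depth.

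Alox5ap encodes the membrane protein that presents arachidonic acid to 5-lipoxygenase, the first step to leukotrienes, and is a gene of myeloid cells. It stood at 4.51, 4.96, 6.30, 7.27 and 7.97 CPM in TUMOUR STD. CHEMO STD ran from 3.81 to 8.51 CPM with a median of 4.06 CPM, the highest being replicates 1 and 2, and CHEMO FO ran from 3.28 to 9.70 CPM with a median of 5.38 CPM, the highest being replicate 18. The groups overlapped, and the log2 fold changes, none called, were -0.28 (SE 0.279) in CHEMO STD and -0.07 (SE 0.262) in CHEMO FO against TUMOUR STD, and 0.21 (SE 0.255) in CHEMO FO versus CHEMO STD. Without CHEMO STD replicates 1 and 2 the first was -0.55 and the last 0.49, neither called, while the difference in mean log2 CPM from TUMOUR STD was -0.50 (exact permutation p = 0.0238, against 0.169 with all samples). Without CHEMO FO replicate 18 the last was 0.03. The summed macrophage list was also highest in replicate 18 of CHEMO FO (734 CPM) and in replicates 1 and 2 of CHEMO STD (433 CPM). In TUMOUR STD the list was highest in replicate 10 (339 CPM) and lowest in replicate 11 (176 CPM), whereas Alox5ap was highest in replicate 12 and next in replicate 11. The part of macrophages in the Alox5ap level was not tested.

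Alox15 encodes a lipoxygenase that oxygenates arachidonic acid and DHA at positions from which hydroxy fatty acids, lipoxins and some resolvins are derived. It was low in TUMOUR STD, at 0.520, 0.397, 0.582, 0 and 0.885 CPM in replicates 8 to 12. In CHEMO STD the lowest sample was at 0.734 CPM, the median at 1.40 CPM and the highest at 8.46 CPM (replicate 6). In CHEMO FO the lowest was at 0.252 CPM, the median at 1.31 CPM and the highest at 7.44 CPM (replicate 17). Counts were 0 to 53 per sample, so the gene lay below the filter. The only TUMOUR STD sample that overlapped CHEMO STD was replicate 12, which lay above CHEMO STD replicates 4 and 7 (0.734 and 0.785 CPM). CHEMO FO overlapped both groups.

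In CHEMO STD versus TUMOUR STD the difference in mean log2 CPM of Alox15 was 1.48 (two-sided exact permutation p = 0.0130 over 462 arrangements, adjusted p = 0.822), where 5.59% of the 19364 genes passed p below 0.05. With 1 sample left out at a time p ran from 0.00952 to 0.0571, the latter without TUMOUR STD replicate 11, and the difference was 1.06 without CHEMO STD replicate 6. An edgeR fit of all genes with a count, added for this gene after seeing the data, called a change of 2.29 on the log2 scale (SE 0.825, unadjusted p = 0.00980, adjusted p = 0.630), against a background of 5.01%. The permutation difference between CHEMO FO and TUMOUR STD was 1.09 (p = 0.130, background 5.47%), while the unfiltered fit called a change of 2.03 (SE 0.799, unadjusted p = 0.0171, background 5.76%). Without CHEMO FO replicate 17, which held 53 of the 88 counts of its group, that permutation difference was 0.75. Between CHEMO FO and CHEMO STD it was -0.39 (permutation p = 0.5684), and the unfiltered fit gave -0.26 (SE 0.647) against a background of 3.73%.

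The 2 samples with the highest Alox15 were also the 2 with the highest erythroid genes. Hbb, a haemoglobin gene, stood at 359 CPM in CHEMO STD replicate 6 and 349 CPM in CHEMO FO replicate 17, against 6.06 to 265 CPM in the other samples, and the erythroid haem enzyme Alas2 at 7.43 and 8.57 CPM, against 0 to 6.27 CPM. The summed platelet and red cell list, with counts for 5 of 6 genes (Ppbp at 0 in every sample), ran from 179 to 468 CPM in TUMOUR STD, 96.5 to 680 CPM in CHEMO STD and 11.9 to 673 CPM in CHEMO FO. Within CHEMO FO, replicates 15, 20 and 18 had the lowest list sums (11.9, 27.4 and 29.4 CPM) and the lowest Alox15 (0.252, 0.267 and 0.363 CPM). Other samples went the other way. CHEMO FO replicate 19 had the list at 102 CPM and Alox15 at 2.64 CPM, against 521 and 1.74 CPM in replicate 16. In CHEMO STD, replicate 5 had the lowest list sum (96.5 CPM) with Alox15 at 1.27 CPM, against 400 and 0.785 CPM in replicate 7. In TUMOUR STD, Alox15 was at most 0.885 CPM with the list at 179 CPM or more. Eosinophil markers were at or near 0 (Epx at 0 in every sample, summed list at most 0.708 CPM). The part of red cells in the Alox15 level was not tested.

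**Figure D4:**
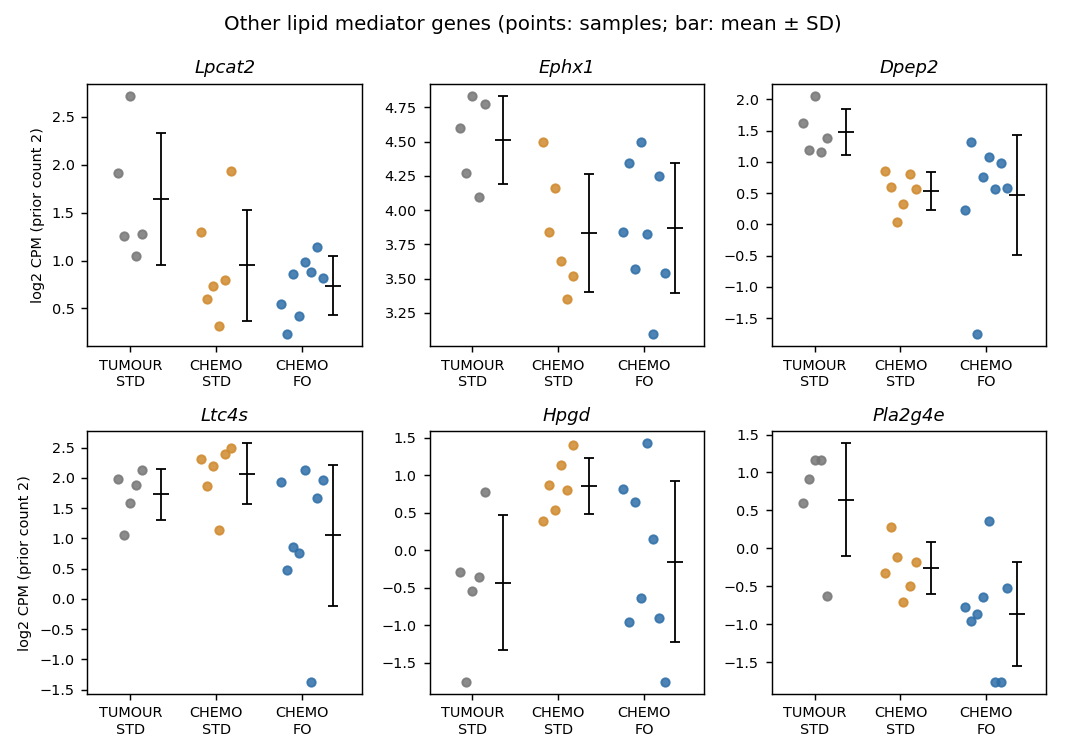
Level of 6 other lipid mediator genes in each sample. The y axis is log2 CPM with a prior count of 2, each point is 1 sample (TUMOUR STD n = 5, CHEMO STD n = 6, CHEMO FO n = 8), and the bar is the mean ± SD. Dpep2 in CHEMO STD lies wholly below TUMOUR STD, and the lowest points of Dpep2 (0 counts) and Ltc4s (1 count) are CHEMO FO replicates 15 and 18. The share of all genes without overlap between those groups was not counted.

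Beyond the members, lists of 105 other genes of the same chemistry were examined, of which 96 had a row and 52 were tested. Few of them were called. In CHEMO STD versus TUMOUR STD 3 of 52 were called, all lower (median of the 52 genes 0.03, against 0.00 over all genes); in CHEMO FO versus CHEMO STD 1 was, lower (median -0.12, against -0.01); and in CHEMO FO versus TUMOUR STD 3 were, all lower (median -0.12, against 0.00). The shares can be read against the backgrounds of 2.38%, 1.66% and 3.6% given above.

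By role, the phospholipase and remodelling list (20 tested) had 1 called lower in CHEMO STD versus TUMOUR STD and the same gene called lower in CHEMO FO versus TUMOUR STD, Lpcat2. The prostanoid synthesis list (11 tested) and the receptor list (6 tested) had 0 called in any comparison. The lipoxygenase and leukotriene list (6 tested) had Dpep2 called lower in CHEMO STD and in CHEMO FO versus TUMOUR STD, and Ltc4s called lower in CHEMO FO versus CHEMO STD. The cytochrome P450 and epoxide list (9 tested) had Ephx1 called lower in both arms that received chemotherapy.

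Dpep2, a dipeptidase that trims leukotriene D4 to E4, stood at 2.77, 1.99, 3.88, 1.94 and 2.30 CPM in TUMOUR STD. CHEMO STD ran from 0.734 to 1.51 CPM with a median of 1.20 CPM, below every TUMOUR STD sample. The log2 fold change was -1.11 (SE 0.392, unadjusted p = 0.00941, adjusted p = 0.719 by edgeR), called with each sample left out in turn (-1.24 to -0.90). The exact permutation p was 0.00216 (adjusted p = 0.822), the smallest that 462 arrangements allow in a two-sided test here. In that test 5.59% of the 19364 genes passed p below 0.05. The share of all genes at the smallest p, or without overlap between these groups, was not counted. Dpep2 is named because it was called in these data. For CHEMO FO against TUMOUR STD it was -0.97 (SE 0.365), and -0.76 and not called without TUMOUR STD replicate 10. CHEMO FO ran from 0 counts to 2.20 CPM.

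Ephx1, the microsomal epoxide hydrolase, stood at 23.9, 18.96, 28.2, 16.8 and 27.1 CPM in TUMOUR STD. CHEMO STD ran from 9.91 to 22.3 CPM (median 13.1) and CHEMO FO from 8.25 to 22.3 CPM (median 13.96), overlapping TUMOUR STD at their upper ends. The log2 fold changes against TUMOUR STD were -0.63 (SE 0.237) in CHEMO STD and -0.64 (SE 0.224) in CHEMO FO, with adjusted p values of 0.719 and 0.487 by edgeR. The changes lay near the 1.5-fold threshold, and the first lost its call in 4 of 19 fits with a sample left out and the second in 3.

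Lpcat2, which makes platelet-activating factor and remodels phospholipids, stood at 3.47, 2.08, 6.30, 1.78 and 2.13 CPM in TUMOUR STD, with replicate 10 highest. CHEMO STD ran from 0.952 to 3.53 CPM and CHEMO FO from 0.878 to 1.92 CPM, the latter below all TUMOUR STD samples but 1. The log2 fold change was -0.79 in CHEMO STD (SE 0.358), and the call was lost in 6 of 19 fits with a sample left out (without TUMOUR STD replicate 8 or 10 or CHEMO STD replicate 3, 4, 5 or 6), falling to -0.35 without TUMOUR STD replicate 10. It was also not called by limma voom or with only those 2 groups fitted, and the exact permutation p was 0.106. The change was -1.15 in CHEMO FO (SE 0.344, unadjusted p = 0.00276, adjusted p = 0.487 by edgeR), and -0.71 and still called without TUMOUR STD replicate 10.

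Ltc4s, the synthase of leukotriene C4, had a median of 4.49 CPM in CHEMO STD (1.90 to 5.30) and 2.19 CPM in CHEMO FO (0.0907 to 4.07), where the lowest sample was replicate 18 with 1 count. TUMOUR STD stood at 3.64, 1.79, 2.71, 3.39 and 4.07 CPM. The log2 fold change in CHEMO FO versus CHEMO STD was -0.88 (SE 0.420, unadjusted p = 0.0472, adjusted p = 0.974 by edgeR). The call was lost in 10 of 19 fits with a sample left out, and the change was -0.64 and still called without CHEMO FO replicate 18. The difference in mean log2 CPM of Ltc4s was -1.02 (two-sided exact permutation p = 0.0569). Mast cells carry this enzyme, and the summed mast cell list (7 of 8 genes with counts, Mcpt1 at 0 in every sample) ran from 23.1 to 47.5 CPM in CHEMO STD and 14.02 to 31.9 CPM in CHEMO FO, with 5 of 5 tested genes lower and 1 of them called. In CHEMO FO replicate 18 the list was at 29.2 CPM, within the range of its group. The part of mast cells in the Ltc4s difference was not tested.

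The study lists Hpgd, Pla2g4e, Ltc4s and the member Pla2g2a as changed on these same libraries, so their direction here is not independent evidence. Hpgd and Pla2g4e lay below the filter on low counts, with at most 20 counts in any sample. Hpgd, the dehydrogenase that inactivates prostaglandins, stood at 0.520, 0, 0.388, 0.484 and 1.42 CPM in TUMOUR STD, 1.01 to 2.36 CPM in CHEMO STD and 0 to 2.39 CPM in CHEMO FO. The difference in mean log2 CPM in CHEMO STD versus TUMOUR STD was 1.29 (two-sided exact permutation p = 0.00866, adjusted p = 0.822), and -1.01 in CHEMO FO versus CHEMO STD (p = 0.0543). Pla2g4e, a cytosolic phospholipase of the group IV family found in muscle, stood at 1.21, 1.59, 1.94, 1.94 and 0.354 CPM in TUMOUR STD, 0.317 to 0.916 CPM in CHEMO STD and 0 to 0.983 CPM in CHEMO FO. Its difference was -0.90 in CHEMO STD versus TUMOUR STD (exact permutation p = 0.0346, adjusted p = 0.822, and p above 0.05 without any of 7 of 11 samples). In CHEMO FO versus TUMOUR STD it was -1.50 (exact permutation p = 0.00311, adjusted p = 0.846, and p of 0.00202 to 0.0126 with a sample left out). CHEMO FO held 0 to 7 counts of this gene per sample. Of the 19364 genes, 5.59% and 5.47% passed p below 0.05 in these comparisons.

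The genes whose log2 CPM deviated from the group means most like a member's, over the 19 samples, are given as a description. For Pla2g2a they were Kctd20 (Pearson r 0.91, Spearman rho 0.84), Clu (0.89, 0.77) and Gpank1 (0.89, 0.71), with r of 0.83, 0.84 and 0.78 over 18 samples without CHEMO FO replicate 18. For Alox5ap they were Fkbp1a (r 0.83, rho 0.78), the integrin gene Itgam (0.83, 0.89) and Phc2 (0.82, 0.74). For Pla2g6 they included Add1 and Dctn1 (r 0.86 for each), for Ptges Ddost, Rab5c and Nrp2 (r 0.87, 0.86 and 0.86), for Ptgs1 Snrnp200, Prkcsh and Col8a1 (r 0.82, 0.79 and 0.78), and for Pla2g4a Cpsf3, Limk1 and Gnaq (r 0.78, 0.77 and 0.77). The points share their library and its depth, and the genes were taken from the 3 highest values of r for each member among 11716 genes.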

How the data were processed

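Gastrocnemius RNA was sequenced by the authors as rRNA-depleted, stranded paired-end libraries. Per the submitters' processing notes and the study's methods, reads were trimmed with Trim Galore 0.4.1, checked with FastQC 0.11.4, aligned to Rnor 6 with TopHat2 2.0.10 and Bowtie2, and annotated with Ensembl genes; the authors deposited raw integer counts per gene. How reads were counted (strand, multiple matches) is not stated in the sources used here; reads that paralogs share are therefore uncertain. Rows without a name (388, 0.102% to 0.272% of counts) were left out.

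From the counts, edgeR 4.0.16 (R 4.3.3) was fitted to 19 samples of 3 groups: filterByExpr (minimum count 10, total 15), TMM scaling and the quasi-likelihood test, with Benjamini-Hochberg adjustment over 11716 genes. Single genes were also tested with two-sided exact permutation of mean log2 CPM (prior count 2) over 19364 genes. Alternatives were DESeq2 1.42.0 (defaults, which can replace outlying counts), limma 3.58.1 (voom with sample weights), other scalings and filters, and each sample left out. The pipeline was tested on simulated data. Members and lists were chosen with earlier results of these data known. Named are all members, the called genes of the lists (at most 8 a comparison), Hpgd, Pla2g4e and Ltc4s, and the 3 genes most alike for each member, of which 1 is not reported here; Cd163, Mrc1, Csf1r, Cd68, Hbb, Alas2, Epx, Ppbp and Mcpt1 are from marker lists. The labels do not say that each library came from a separate rat, so p values measure the spread between these samples. Floors and depth cover counting error only. Figures used matplotlib.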

Additional observations from a re-analysis of the deposited data

Results flagged for a closer look

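Within-group gaps in log2 CPM were compared with Dixon's 95% critical value for 15 genes in 3 groups (45 groups), of which chance flags about 1 in 20; 5 were flagged. The highest sample was flagged for Pla2g2a in CHEMO FO (replicate 18, 52.2 CPM, gap over range 0.617), for Ptgs1 in TUMOUR STD (replicate 10, 9.11 CPM, 0.809) and for Alox15 in CHEMO STD (replicate 6, 8.46 CPM, 0.677). The lowest was flagged for Dpep2 in CHEMO FO (replicate 15, 0 counts, 0.646) and for Ltc4s in CHEMO FO (replicate 18, 1 count, 0.529). CHEMO FO replicate 18 also had the highest macrophage sum and the lowest muscle fibre sum. TUMOUR STD replicate 10 had the highest keratinocyte and Schwann cell sums, and CHEMO STD replicate 6 the highest platelet and red cell sum. The part of these in the flagged values was not tested.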

How the results depend on the processing

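Each result was recomputed with other scalings, filters, tools and groupings and with each sample left out. Of the members, 1 was called in CHEMO STD versus TUMOUR STD with no filter, with a filter on a mean of at least 10 counts, with CHEMO STD replicates 1 and 2 separate (Alox15 each time), by DESeq2 and with only those 2 groups fitted (Pla2g2a each time). None (0) was called in CHEMO FO versus CHEMO STD by DESeq2, by limma voom, with both TUMOUR STD replicate 10 and CHEMO FO replicate 18 left out (a choice made after seeing the data) and at an adjusted p below 0.05. For CHEMO FO versus TUMOUR STD 1 was called with either other filter or the replicates separate (Alox15) and by limma voom (Ptges). Alox15 held 18, 96 and 88 counts in total in TUMOUR STD, CHEMO STD and CHEMO FO. It passed the filter on the mean, and that with the replicates separate, mainly through the arms where it was higher. Those calls are therefore not separate support for a difference. Of the lists' genes, 9 were called with no filter in each comparison with TUMOUR STD. Calls over all genes rose too in that fit, to 5.01% of 19364 genes for CHEMO STD and 5.76% for CHEMO FO, against 2.38% and 3.6% with the filter. List genes called were 1 by limma voom in CHEMO STD versus TUMOUR STD and 0 at an adjusted p below 0.05 in all 3 comparisons. They were 0 in CHEMO FO versus CHEMO STD with only those groups fitted, and 0 in both CHEMO FO comparisons with both libraries left out.

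With 1 sample left out at a time, members called ran from 0 to 1 in each comparison, and list genes called from 1 (without CHEMO STD replicate 6) to 6 (without CHEMO STD replicates 1 and 2), from 0 to 1 (0 in 10 of 19 fits) and from 1 (without TUMOUR STD replicate 10) to 4, in CHEMO STD versus TUMOUR STD, in CHEMO FO versus CHEMO STD and in CHEMO FO versus TUMOUR STD. Calls over all genes moved as well. In CHEMO STD versus TUMOUR STD they were 603 of 11598 genes without CHEMO STD replicates 1 and 2, against 279 of 11716 with all samples. In CHEMO FO versus TUMOUR STD they were 287 of 11751 without TUMOUR STD replicate 10, against 422 of 11716.

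Sign changes outside the single omissions were as follows, none in a called value. Between CHEMO FO and CHEMO STD, the Ephx1 log2 fold change was 0.0051 by DESeq2, 0.0708 by limma voom and 0.0757 with both libraries left out; with both left out, Pla2g4a was -0.0441 and Ptges -0.1835, and their differences in mean log2 CPM were -0.0408 and -0.0075. Against TUMOUR STD, Pla2g2a in CHEMO FO was -0.5953 by DESeq2, and with both libraries left out Ptgs1 was 0.2816, with differences in mean log2 CPM of 0.1946 for Ptgs1 and -0.014 for Ptgs2. The Ptgds difference in CHEMO STD versus TUMOUR STD was 0.0394 with both left out.

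Single omissions turned the sign of these log2 fold changes. In CHEMO STD versus TUMOUR STD Pla2g4a ran from -0.1811 to 0.4363 and Ptges from -0.1005 to 0.6174. Between the arms with chemotherapy Pla2g4a ran from -0.1146 to 0.2495, Ptges from -0.1778 to 0.2886 and Ephx1 from -0.1018 to 0.1759. From TUMOUR STD to CHEMO FO Pla2g2a ran from -0.6264 to 2.2337, Pla2g4a from -0.099 to 0.5056, Ptges from -0.0339 to 0.7126, Ptgs1 from -0.3181 to 0.4389 and Alox5ap from -0.2323 to 0.0386. They also turned these differences in mean log2 CPM. In CHEMO STD versus TUMOUR STD Pla2g4a ran from -0.1281 to 0.3573 and Ptgds from -0.3151 to 0.0694. In CHEMO FO versus CHEMO STD Pla2g4a ran from -0.2311 to 0.2323, Ptges from -0.0203 to 0.3135, Ptgds from -0.3208 to 0.0097 and Alox15 from -0.7303 to 0.0424. In CHEMO FO versus TUMOUR STD Pla2g2a ran from -0.1487 to 0.8688, Pla2g4a from -0.0795 to 0.4102, Ptgs1 from -0.1617 to 0.2943, Ptgs2 from -0.0541 to 0.2654 and Hpgd from -0.0431 to 0.5916.

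The cause of these changes was not tested. Low counts limit Ptgs2, Ptgds, Alox15, Hpgd and Pla2g4e. No paired analysis was run, since the study assigned rats to the arms at random and the labels give no pairing.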
